A study of Homo sapiens with 6 samples.

Results

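The genes described here encode the proteins by which a cell senses double-stranded RNA and passes the signal on, which is the pathway that a DNA methyltransferase inhibitor is thought to engage in viral mimicry. They were listed by symbol from general knowledge of the pathway, with earlier results of these data known. Of 10 symbols listed, 9 had a row among the 17100 transcripts of the count table. Of these, 8 passed the filter on low counts, which left 13322 genes to be tested. ZBP1 had too few counts to be tested, and IFNB1 had no row and was not analysed here.

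Long double-stranded RNA is rare in the cytosol of a healthy cell. In viral mimicry, loss of DNA methylation allows transcription of silent repeats, whose paired transcripts are read as if they came from a virus. RIG-I (DDX58) and MDA5 (IFIH1) are helicases that bind such RNA and engage the adaptor MAVS on mitochondria through their caspase recruitment domains, while LGP2 (DHX58) lacks these domains and modulates the other two. TLR3 senses double-stranded RNA in endosomes, PKR (EIF2AK2) answers it by phosphorylating eIF2α, ZBP1 binds the left-handed Z form, and ADAR edits adenosine to inosine and thereby weakens the pairing. Signals from MAVS and from TLR3 activate IRF3, which induces IFNB1, the gene of interferon β, and several of the sensors are themselves induced by interferon.

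All values come from a single established cell line, MDA-MB-231, derived from a human breast adenocarcinoma of the triple-negative type. RNA from 3 experiments was sequenced for each of 2 groups, a vehicle group and a group given 1 µM guadecitabine (SGI-110), a DNA methyltransferase inhibitor that releases decitabine, for 96 h followed by 24 h without drug. The libraries held 8792127 to 22277442 counts, with guadecitabine replicate 2 the shallowest. Vehicle replicate 3 stood apart, since 20 transcripts had 0 counts in it against 1593 to 2517 in each of the other libraries. No transcript of the table had fewer than 11 counts in total, so that one at 0 elsewhere could enter through this library alone. In 533 genes with at most 1 count in each of the other vehicle libraries, vehicle replicate 3 held a median of 7.10 counts per kb of counted exon. These genes, called silent below, were taken among those with at least 11 counts over the guadecitabine libraries, where their medians were 2.95 to 6.50 per kb.

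The identity of the line was checked with marker genes. Each of the 5 mesenchymal markers of the list (VIM, CD44, AXL, CAV1 and MSN) was well above the floor of 3 counts in every library, with summed normalized counts of 128100 to 135000 in vehicle and 132900 to 147800 after guadecitabine. Within this sum CD44 and VIM rose, with log2 fold changes of 1.18 and 0.33, and AXL and CAV1 fell, with -1.27 and -1.19 (edgeR, adjusted p at most 0.0258). The 5 luminal markers summed to 2486 to 2607 normalized counts in vehicle and 2865 to 3013 after guadecitabine, mostly from XBP1 and from GATA3, which rose from 351 ± 33.8 to 623 ± 27.1 (SD, n = 3; edgeR, adjusted p = 0.000512). The hormone receptor genes ESR1 and PGR of this list had at most 1 count in each library other than vehicle replicate 3. Of 10 leukocyte markers 8 were in the table, and their summed level was 5863 to 6770 normalized counts in vehicle and 12550 to 12950 after guadecitabine. CD68 and LAPTM5 made up most of this sum and were the 2 called of 3 tested, with log2 fold changes of 1.27 and 0.84 (edgeR, adjusted p = 1.69e-05 and 0.000264). CD14, the third tested, had 132.5 to 190.2 normalized counts in all 6 libraries. The defining markers PTPRC, MS4A1 and FCGR3A were at or under 3 counts in each library other than vehicle replicate 3. The sum of 4 endothelial markers was 116.8 to 230.1 in vehicle and 238.9 to 306.7 after guadecitabine. KDR of this list rose, with a log2 fold change of 1.20 (edgeR, adjusted p = 0.0026), and the part of these markers in the results was not tested.

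The start regions of the sensor genes are shown for the letters to which interferon-activated factors are known to bind. The motif searched was GAAANNGAAA, the core of the interferon-stimulated response element, on both strands of windows of 250 bases before and 50 bases after each RefSeq start site on GRCh38.p14. Of 35116 such windows, 3.57% held it. Windows were found for 7 of the 10 genes (DDX58 under its newer symbol RIGI), and not for DHX58, ZBP1 and IRF3. The stretch from 170 bases before to 10 bases after the start is printed 5′ to 3′ on the strand of the gene, for the 2 RIG-I-like receptors with a window, which rose, and for TLR3 and EIF2AK2, which did not, with each match in capitals. The start sites come from another build than the deposited coordinates and can differ from the starts of the counted transcripts.
DDX58, chr9:32526187-32526366, minus strand: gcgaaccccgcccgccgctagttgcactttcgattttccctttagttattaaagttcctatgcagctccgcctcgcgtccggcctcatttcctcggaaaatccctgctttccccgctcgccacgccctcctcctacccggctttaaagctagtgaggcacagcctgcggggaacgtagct
IFIH1, chr2:162318675-162318854, minus strand: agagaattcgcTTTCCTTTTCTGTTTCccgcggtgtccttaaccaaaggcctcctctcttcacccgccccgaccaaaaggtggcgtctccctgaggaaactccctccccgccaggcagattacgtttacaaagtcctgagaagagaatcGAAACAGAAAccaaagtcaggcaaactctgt
TLR3, chr4:186068986-186069165, plus strand: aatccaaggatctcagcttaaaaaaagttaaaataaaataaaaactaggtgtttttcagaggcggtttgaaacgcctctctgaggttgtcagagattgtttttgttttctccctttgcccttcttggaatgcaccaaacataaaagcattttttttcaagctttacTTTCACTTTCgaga
EIF2AK2, chr2:37156971-37157150, minus strand: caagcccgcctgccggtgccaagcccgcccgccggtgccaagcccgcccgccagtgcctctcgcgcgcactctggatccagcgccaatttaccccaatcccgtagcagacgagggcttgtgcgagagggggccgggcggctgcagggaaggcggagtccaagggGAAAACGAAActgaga

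The IFIH1 window held 3 matches, and 3 or more were found in 0.037% of all windows. The first 2 lie on the minus strand of the gene at -159 to -150 and -153 to -144 from the start and overlap each other, and the last lies on its plus strand at -21 to -12. EIF2AK2 had 1 match at -6 to 4 and TLR3 had 1 at -4 to 6, so that a match was present in a gene that rose and in genes that did not. No match was found in the windows of DDX58, MAVS, ADAR or IFNB1, which says only that these letters are not in those windows. CpG sites, the targets of DNA methylation, numbered 27 in the 300 bases of DDX58, 12 in IFIH1, 5 in TLR3, 30 in EIF2AK2, 34 in MAVS, 13 or 14 in the 3 starts of ADAR and 1 in IFNB1, with a median of 14 over all windows. Methylation was not measured in these libraries.

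All 3 RIG-I-like receptors were higher after guadecitabine, whereas PKR and ADAR did not pass the test, PKR with a wide spread after treatment and ADAR with a narrow one. Of the 8 genes tested, 3 rose, 1 fell (MAVS, by a small margin) and 4 did not pass an adjusted p of 0.05 in the quasi-likelihood test of edgeR. Across all genes tested 19.3% rose and 18.4% fell, so that 37.7% were called in either direction, and the 4 calls among 8 sensing genes have to be read against this background. In bulk RNA a change in the number of cells that express a gene and a change in RNA per cell cannot be told apart.

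DDX58, which encodes RIG-I, the sensor of short double-stranded RNA with a 5′ triphosphate, spans 32455300 to 32526322 on the minus strand of chromosome 9 in hg19. GENCODE places 4471 exon bases of a second gene, ENSG00000288684, on the same bases and strand, and reads from the 2 cannot be told apart. DDX58 had 778, 727 and 980 counts in vehicle replicates 1, 2 and 3 and 3834, 968 and 2179 counts in guadecitabine replicates 1, 2 and 3. On the scale of TMM normalized counts, which corrects for depth, these were 710.0, 735.6 and 725.2 in vehicle and 2974, 1888 and 2108 after guadecitabine. The vehicle libraries lay close together, and every guadecitabine library lay above all of them, with replicate 1 the highest. The group means were 724 ± 12.9 and 2323 ± 575 normalized counts (SD, n = 3). The fitted rise was 3.22-fold, with a 95% interval of 2.48-fold to 4.18-fold, a log2 fold change of 1.69 ± 0.17 (SE; edgeR, adjusted p = 7.92e-05). Of all genes tested, 4.53% had a larger log2 fold change.

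IFIH1, which encodes MDA5, the sensor of long double-stranded RNA, spans 163123589 to 163175218 on the minus strand of chromosome 2. Its normalized counts were 211.7, 214.5 and 227.9 in vehicle replicates 1, 2 and 3 and 782.0, 526.5 and 639.4 in guadecitabine replicates 1, 2 and 3. As for DDX58, the vehicle libraries were tightly grouped and guadecitabine replicate 1 was the highest. The means were 218 ± 8.67 and 649 ± 128 normalized counts (SD, n = 3). The rise was 2.99-fold (95% interval 2.36 to 3.79), or 1.58 ± 0.15 on the log2 scale (SE; edgeR, adjusted p = 6.62e-05).

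DHX58, which encodes LGP2, the regulator of the other RIG-I-like receptors, spans 40253422 to 40264751 on the minus strand of chromosome 17. It had 265.6, 250.9 and 264.9 normalized counts in vehicle replicates 1, 2 and 3 and 519.8, 649.4 and 664.6 in guadecitabine replicates 1, 2 and 3. The groups did not overlap here either, but guadecitabine replicate 1, the highest library for DDX58 and IFIH1, was the lowest for DHX58. The means were 261 ± 8.27 and 611 ± 79.6 normalized counts (SD, n = 3). The rise was 2.34-fold (95% interval 1.92 to 2.85), or 1.23 ± 0.13 on the log2 scale (SE; edgeR, adjusted p = 9.54e-05). No single library carried these rises, since any 5 of the 6 gave log2 fold changes of 1.47 to 1.82 for DDX58, 1.43 to 1.71 for IFIH1 and 1.16 to 1.33 for DHX58, with an adjusted p (edgeR) of at most 0.0016.

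**Figure D1:**
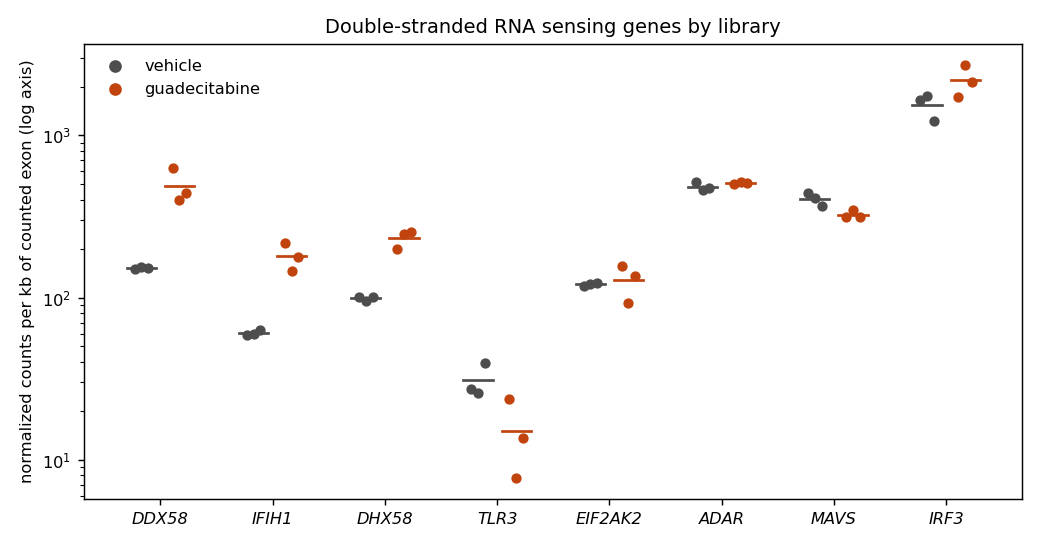
Normalized counts per kb of counted exon (log axis) for 8 sensing genes, with 1 point per library and a bar at the group mean, in vehicle (grey, n = 3) and guadecitabine (orange, n = 3). The orange points lie above all grey points for DDX58, IFIH1 and DHX58 and below them for TLR3 and MAVS. For EIF2AK2 they lie on both sides of the grey points, for ADAR among them and for IRF3 partly above them; ZBP1 is not drawn since vehicle replicate 2 had 0 counts.

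TLR3, the endosomal receptor, was expressed at a low level on chromosome 4 (186990309 to 187006252, plus strand) and did not pass the test. It had 91, 77 and 163 counts in vehicle replicates 1, 2 and 3 and 93, 12 and 43 counts in guadecitabine replicates 1, 2 and 3. After normalization these were 83.04, 77.91 and 120.6 against 72.15, 23.40 and 41.60, so that each guadecitabine library lay below each vehicle library, by little in replicate 1. The log2 fold change was -0.98 (95% interval -1.84 to -0.13; edgeR, adjusted p = 0.0696). Leaving out guadecitabine replicate 1 moved it to -1.49 with an adjusted p of 0.0168 (edgeR), and leaving out vehicle replicate 3, in which 13.2% of the TLR3 counts equal the background of silent genes of that length, moved it to -0.71 with an adjusted p of 0.116.

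ZBP1, the sensor of Z-form nucleic acid and a trigger of necroptosis, was close to silent on chromosome 20 (56178902 to 56195632, minus strand). It had 1, 0 and 18 counts in vehicle replicates 1, 2 and 3 and 3, 1 and 3 counts in guadecitabine replicates 1, 2 and 3. Every library other than vehicle replicate 3 was at or under the floor of 3 counts, and in that library silent genes of the same length would have 16.3 counts. A change of ZBP1 was therefore not detectable at this depth, and no fold change is given.

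EIF2AK2, which encodes PKR, lies on chromosome 2 (37332284 to 37384190, minus strand) and had 509.2, 526.1 and 537.3 normalized counts in vehicle replicates 1, 2 and 3. After guadecitabine it had 678.8, 401.7 and 594.0, so that the guadecitabine libraries lay on both sides of the vehicle libraries. The spread rose from 2.69% to 25.4% of the mean (coefficient of variation, n = 3), which leaves a wide interval. The fitted ratio was 1.07-fold with a 95% interval of 0.823-fold to 1.40-fold (edgeR, adjusted p = 0.665). In the GENCODE annotation 401 of its exon bases are shared with the pseudogene ARL14EPP1 on the opposite strand. Without guadecitabine replicate 1 the log2 fold change was -0.05 in place of 0.10. A rise of PKR as large as that of the RIG-I-like receptors lies outside this interval, and a smaller change in either direction lies within it.

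ADAR did not pass the test and had the least spread after treatment of the 9 genes, at 1.55% of the mean. On chromosome 1 (154554534 to 154600456, minus strand), it had 3381, 3003 and 3104 normalized counts in vehicle replicates 1, 2 and 3 and 3273, 3376 and 3320 in guadecitabine replicates 1, 2 and 3. The ratio was 1.05-fold with a 95% interval of 0.905-fold to 1.22-fold (edgeR, adjusted p = 0.591). The protein is made in a constitutive short form and an interferon-inducible long form from separate starts, and the count per gene does not separate them.

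MAVS, the adaptor that both RIG-I and MDA5 require, was abundant on chromosome 20 (3827446 to 3856770, plus strand). It had 5097, 4786 and 4270 normalized counts in vehicle replicates 1, 2 and 3 and 3642, 3992 and 3641 in guadecitabine replicates 1, 2 and 3. Each guadecitabine library lay below each vehicle library, and the difference was small, at 0.796-fold (95% interval 0.676 to 0.939), a log2 fold change of -0.33 ± 0.11 (SE; edgeR, adjusted p = 0.0355). The call held in 2 of the 6 fits that left out a library, with an adjusted p (edgeR) of 0.0156 without vehicle replicate 3 and 0.0409 without guadecitabine replicate 2. It was lost in the other 4, with 0.157 without vehicle replicate 1, 0.121 without vehicle replicate 2, 0.0708 without guadecitabine replicate 1 and 0.138 without guadecitabine replicate 3, while the log2 fold change ranged from -0.40 to -0.27 over the 6 fits.

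IRF3, the transcription factor downstream of MAVS and TLR3, had 1066, 1131 and 787.4 normalized counts in vehicle replicates 1, 2 and 3 and 1119, 1759 and 1366 in guadecitabine replicates 1, 2 and 3. Guadecitabine replicate 1 lay below vehicle replicate 2, so that the groups overlapped. The log2 fold change was 0.50 (95% interval 0.08 to 0.93; edgeR, adjusted p = 0.0621), with 0.65 and an adjusted p of 0.0228 without guadecitabine replicate 1. It spans 50162826 to 50169132 on the minus strand of chromosome 19, and 734 bases of its exons in the GENCODE annotation are shared with BCL2L12 on the opposite strand. Only 645 bases of IRF3 exon were counted, and whether the counting used strand is not given in the sources used here, so that the level and the change of IRF3 are uncertain.

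**Figure D2:**
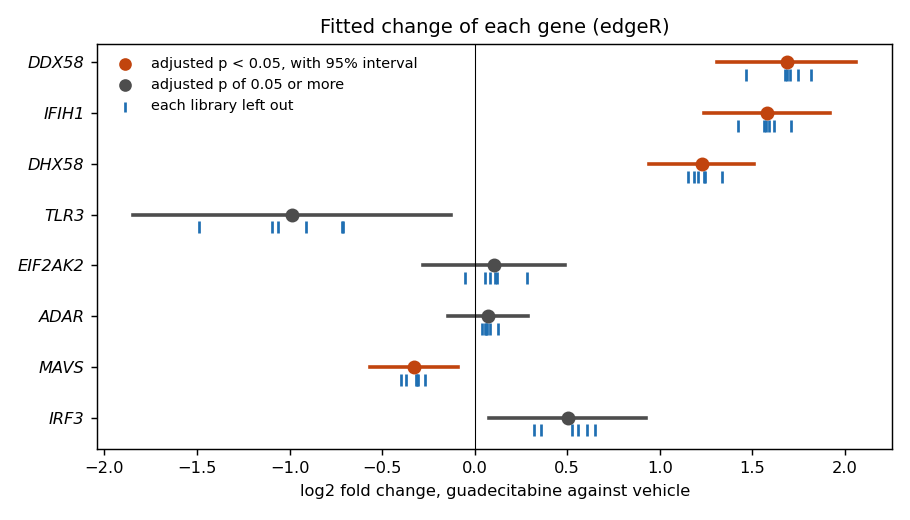
Log2 fold change (guadecitabine against vehicle, n = 3 each) of 8 sensing genes from the edgeR fit, with the 95% interval as a line and the values with each of the 6 libraries left out as blue ticks. The intervals of DDX58, IFIH1 and DHX58 lie above 0.94, and those of EIF2AK2 and ADAR include 0.

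Groups did not overlap for 5 of the 8 sensing genes tested (DDX58, IFIH1, DHX58, TLR3 and MAVS), beside 51.7% of all genes tested. They overlapped for ZBP1, which was not tested. For each of the 5 an exact permutation test (two-sided) had p = 0.1, below which a design of 3 against 3 cannot go. Set among all genes tested, the RIG-I-like receptors were in the upper part of the distribution without being extreme, with 4.53%, 4.83% and 6.46% of genes above DDX58, IFIH1 and DHX58. The median log2 fold change was 0.30 over the 8 sensing genes and 0.02 over all 13322.

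**Figure D3:**
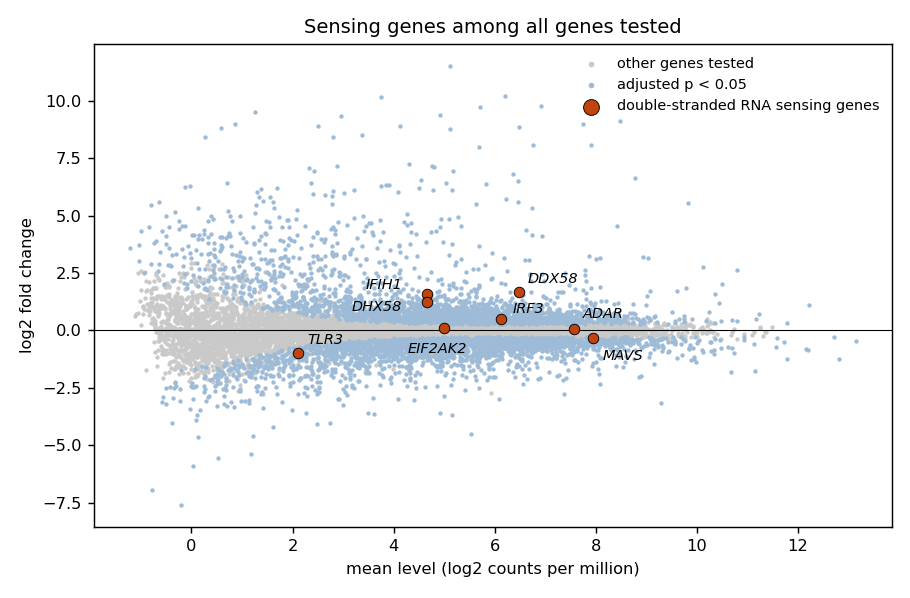
Log2 fold change (guadecitabine against vehicle) plotted against the mean level in log2 CPM (counts scaled to a common library size) for 13322 genes, with genes of adjusted p under 0.05 in blue and 8 sensing genes as orange points. DDX58 at 1.69, IFIH1 at 1.58 and DHX58 at 1.23 sit above the bulk of the points, while ADAR at 0.07 and EIF2AK2 at 0.10 sit near 0.

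Levels of different genes were compared as normalized counts per kb of counted exon. In vehicle, IRF3 was the highest at 1542 ± 283 (SD, n = 3), followed by ADAR at 484 ± 29.9, MAVS at 407 ± 36.0, DDX58 at 152 ± 2.71, EIF2AK2 at 121 ± 3.25, DHX58 at 99.5 ± 3.16, IFIH1 at 60.6 ± 2.41, TLR3 at 30.9 ± 7.67 and ZBP1 at 2.07 ± 3.24. The ZBP1 value in vehicle came mostly from vehicle replicate 3, and the mean of vehicle replicates 1 and 2 was 0.199. No neighbours in this order of levels overlapped in their libraries. RIG-I was thus the most abundant of the RIG-I-like receptors per length, and MDA5 the least. After guadecitabine DDX58 stood at 489 ± 121 (SD, n = 3), which overlapped ADAR at 508 ± 7.85 and lay above MAVS at 324 ± 17.5. DHX58 at 234 ± 30.4, IFIH1 at 180 ± 35.6 and EIF2AK2 at 129 ± 32.7 each overlapped their neighbour, TLR3 was at 15.03 ± 8.10 and ZBP1 at 1.04 ± 0.209, and IRF3 was still the highest at 2193 ± 501.

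Ratios between genes within a library do not depend on depth or scaling. Per kb, DDX58 had 0.340, 0.375 and 0.414 times the level of MAVS in vehicle replicates 1, 2 and 3, and 1.99, 1.15 and 1.41 times its level in guadecitabine replicates 1, 2 and 3. Per kb the receptor was thus below its adaptor in each vehicle library and above it in each guadecitabine library. This crossing rests on the counted lengths, 4756 bases for DDX58 and 11596 for MAVS. In raw counts DDX58 stayed below MAVS in guadecitabine replicates 1, 2 and 3, with 3834, 968 and 2179 against 4694, 2047 and 3764. For IFIH1 the mean ratio to MAVS went from 0.150 ± 0.0197 to 0.561 ± 0.133 (SD, n = 3), and for DHX58 from 0.246 ± 0.0250 to 0.721 ± 0.0881. The ratio of DDX58 to EIF2AK2 was 1.27, 1.28 and 1.23 in vehicle replicates 1, 2 and 3 and 4.0, 4.29 and 3.24 in guadecitabine replicates 1, 2 and 3, so that these sensors parted in every library. The ratio of IFIH1 to DDX58 was 0.398 ± 0.0154 in vehicle and 0.372 ± 0.0269 after guadecitabine (SD, n = 3; two-sided exact permutation test, p = 0.3), and its libraries overlapped. DHX58 made up 30.9% to 32.8% of the per kb level of the 3 receptors in vehicle, and 19.1%, 31.4% and 29.0% in guadecitabine replicates 1, 2 and 3. In 10 ratios examined, the 7 without overlap between groups had p = 0.1 in the exact permutation test, the smallest possible, or 0.143 with Benjamini-Hochberg adjustment over the 10.

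**Figure D4:**
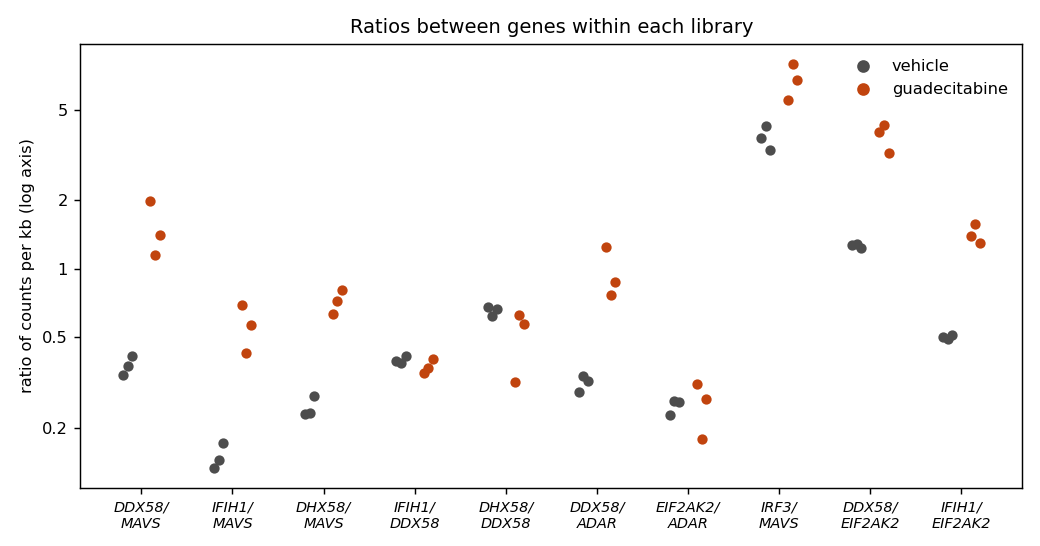
Ratios of counts per kb between pairs of sensing genes within each library (log axis), in vehicle (grey, n = 3) and guadecitabine (orange, n = 3). The ratios of DDX58, IFIH1 and DHX58 to MAVS rise without overlap, while IFIH1 to DDX58 and EIF2AK2 to ADAR overlap between the groups.

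The relay that links the adaptors to IRF3 and NF-κB was examined next. Of 24 genes of this list, 12 rose and 2 fell (edgeR, adjusted p of 0.05), with a median log2 fold change of 0.41, beside 19.3% higher and 18.4% lower over all genes tested. The inhibitor of NF-κB NFKBIA, itself an NF-κB target, had a log2 fold change of 1.20, the IRF3 kinase gene IKBKE had 0.90, the NF-κB subunit gene NFKB1 had 0.77, and the adaptor gene TRAF3 had 0.77 (edgeR, adjusted p at most 0.000381). The 2 genes that fell, named here after their values were seen, were TRIM25, a ubiquitin ligase that activates RIG-I, at -0.45, and IKBKB at -0.31. RNF135, another ubiquitin ligase of RIG-I in this list and also named after its value was seen, rose with 0.40 (edgeR, adjusted p = 0.0267). With single libraries left out, 9 to 12 of the list rose and at most 1 fell, so that the falls are uncertain.

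Among 16 tested inhibitors of the pathway, 5 rose and 4 fell, beside the 19.3% and 18.4% of all genes, with a median log2 fold change of -0.13. TNFAIP3, the deubiquitinase A20, went from 154 ± 42.4 to 1129 ± 66.5 normalized counts (SD, n = 3), or 2.87 ± 0.18 on the log2 scale (SE; edgeR, adjusted p = 5.73e-06), and CYLD, another deubiquitinase, had 1.28. PCBP2, which promotes the breakdown of MAVS, fell with a log2 fold change of -0.91, and DAK, an inhibitor of MDA5, fell with -0.99 (edgeR, adjusted p = 0.000187 and 0.00218).

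Of 29 tested genes for other proteins that bind, cut, edit or unwind double-stranded RNA, 10 rose and 2 fell, beside 19.3% and 18.4% of all genes, with a median log2 fold change of 0.31. ZNFX1, an antiviral RNA helicase, had a log2 fold change of 1.20, OASL of the oligoadenylate synthetase family had 1.18, the antiviral zinc finger gene ZC3HAV1 had 0.86 and OAS3 had 0.67 (edgeR, adjusted p at most 0.00139). Among those that fell was DGCR8, named after its value was seen, at -0.45, and without guadecitabine replicate 1 the number that fell was 4. In the eIF2α kinase arm, which PKR shares with kinases of other stresses, 7 of 16 genes rose and 0 fell by edgeR, with the same numbers by the Wald test of DESeq2 and at an unadjusted edgeR p under 0.05, beside 19.3% higher and 18.4% lower over all genes. PPP1R15A, the stress-induced subunit that directs the phosphatase to eIF2α, had the largest of these at 1.37 (edgeR, adjusted p = 2.52e-05), while DNAJC3 had 0.61, EIF2S2 0.46 and PPP1R15B 0.44. The number in this arm was 3 without vehicle replicate 1, 4 without vehicle replicate 2, 4 without vehicle replicate 3 and 3 without guadecitabine replicate 3.

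The parallel DNA sensing arm was mixed, with 3 of 12 genes higher and 5 lower, where 19.3% and 18.4% of all genes were, and a median log2 fold change of -0.11. MB21D1, which encodes the DNA sensor cGAS, had 1.09 and AIM2 had 0.65, while ENPP1, which degrades the product of cGAS, had -0.94 and the RNase H2 subunit gene RNASEH2A had -0.77 (edgeR, adjusted p at most 0.00722). The number lower was 3 without vehicle replicate 2, without guadecitabine replicate 1 or without guadecitabine replicate 3. In the necroptosis arm, in which ZBP1 and TLR3 act through RIP kinases, 4 of 7 genes rose and 1 fell, against 19.3% and 18.4% of all genes. MLKL, the executioner, had a log2 fold change of 0.99, the caspase-8 inhibitor CFLAR had 0.82, RIPK1 had 0.63 and the adaptor gene FADD had -0.68 (edgeR, adjusted p at most 0.0019). Of 7 tested genes of the endosomal group around TLR3, 0 were called by edgeR, 0 by the Wald test of DESeq2 and 0 at an unadjusted edgeR p under 0.05, and their median log2 fold change was -0.20.

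Of 23 interferon symbols beyond IFNB1, 2 were in the table. Since no row had fewer than 11 counts in total, a symbol without a row was not shown to be at 0. IFNL1, a type III interferon, had 0, 1 and 7 counts in vehicle replicates 1, 2 and 3 and 26, 19 and 27 counts in guadecitabine replicates 1, 2 and 3. Every guadecitabine library lay above every vehicle library, at a low level throughout, and silent genes of its length would have 6.08 counts in vehicle replicate 3. IFNL1 itself met the definition of the silent genes, so that this background comes from genes chosen by the same pattern. It passed the filter on low counts only through the guadecitabine libraries, so that its place in the test rests on the group where it was high. The fitted log2 fold change was 3.56 ± 0.90 (SE; edgeR, adjusted p = 0.0134), and the adjusted p was 0.0503 without vehicle replicate 2, 0.0501 without guadecitabine replicate 2 and 0.0639 without guadecitabine replicate 3. Without vehicle replicate 3 the value was 5.44 (edgeR, adjusted p = 0.000298), and with the background of that library subtracted it was 5.24 (edgeR, adjusted p = 0.000322), so that the size of the change rests on that library. IFNW1 had 11 counts in vehicle replicate 3 and 0 in each of the others.

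Of 9 genes of the interferon receptor relay, 4 rose and 2 fell, where 19.3% of all genes rose and 18.4% fell. The kinase gene JAK1 had a log2 fold change of 0.66, while TYK2 had -0.44 and STAT2 had -0.40 (edgeR, adjusted p at most 0.0177). Of these only JAK1 was called with each library left out. Neither TYK2 nor STAT2 was called without vehicle replicate 1, vehicle replicate 2 or guadecitabine replicate 3, with an adjusted p (edgeR) of 0.0844, 0.0851 and 0.0733 for TYK2 and 0.0697, 0.0547 and 0.0582 for STAT2.

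Genes known to be induced through IRF3 or interferon rose in 19 of 29 cases and fell in 1, beside 19.3% and 18.4% of all genes, with a median log2 fold change of 0.96 against 0.02 for all genes. The chemokine genes led, with CCL5 at 4.70 ± 0.18, CXCL10 at 3.95 ± 0.32 and CXCL11 at 3.31 ± 0.19 (SE; edgeR, adjusted p at most 2.36e-05), and IFI44 had 1.22. CCL5 had 18, 26 and 37 counts in vehicle replicates 1, 2 and 3 and 773, 303 and 672 in guadecitabine replicates 1, 2 and 3, so that the groups lay far apart. CXCL10 had 8, 7 and 13 counts in vehicle replicates 1, 2 and 3 and 171, 52 and 148 in guadecitabine replicates 1, 2 and 3. Its vehicle counts alone would not have passed the filter on low counts. The place of CXCL10 in the test thus rests on the group where it was high. TRIM22, named after its value was seen, was the 1 gene that fell, with -1.62 (edgeR, adjusted p = 0.0104). The number that rose was 18 or 19 with each library left out, and the number that fell was 1 or 2. The markers CD68, LAPTM5, KDR and GATA3 rose beside these lists and CD14 was present in every library, while PTPRC, MS4A1 and FCGR3A were near 0 outside vehicle replicate 3. Their part in these counts was not tested.

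**Figure D5:**
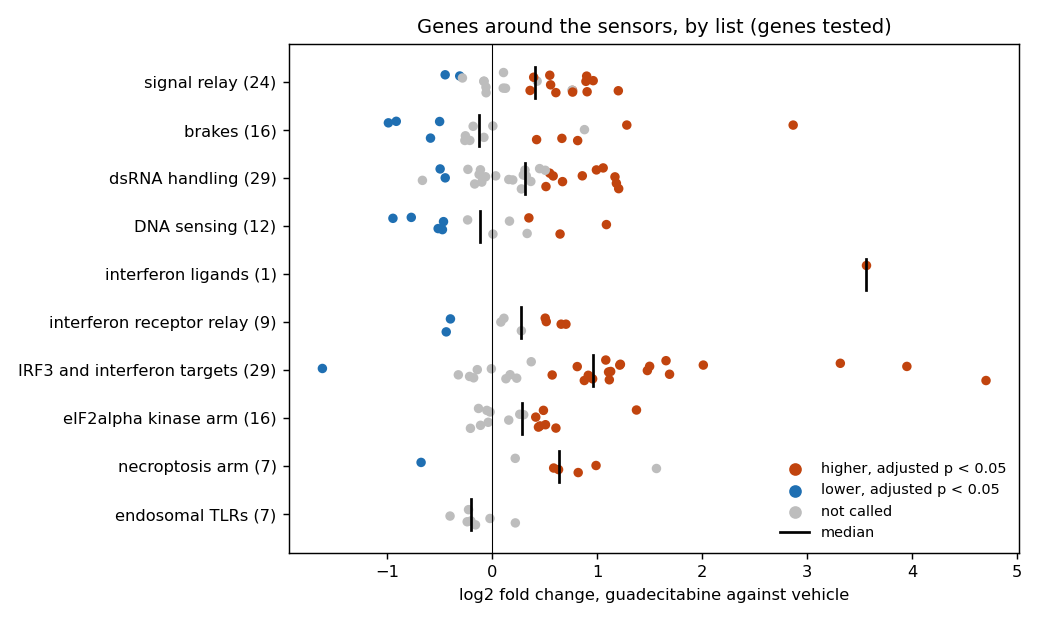
Log2 fold change (guadecitabine against vehicle) of each tested gene in 10 lists around the sensors, with the number tested in brackets, orange and blue for genes called higher and lower by edgeR, grey for genes not called and a black line at the median. The list of IRF3 and interferon targets has its median at 0.96, while the inhibitors (brakes), at -0.13, and the DNA sensing arm, at -0.11, have genes on both sides of 0.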

How the data were processed

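RNA sequencing of MDA-MB-231 cells in 6 libraries was processed. The sources name 3 independent experiments for the RNA, and groups and replicate numbers were taken from the labels. The authors aligned reads to hg19 with STAR 2.3.1z and used iRNA-seq to count reads in exons. The deposited table holds these raw counts for each RefSeq transcript, beside the exon length counted. Regularized log2 values made with DESeq2 and the authors' own fold changes and p-values were deposited as well and not used. The read length and the treatment of reads matching several places are not given in the sources used here.

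The quasi-likelihood test of edgeR 4.0.16 (R 4.3.3) was run on the counts, with TMM normalization, the filterByExpr filter at a minimum count of 10 and Benjamini-Hochberg adjustment over 13322 genes. Standard errors were derived from the F statistic. Normalized counts refer to the mean library total of 17911210. Levels per kb divide by the exon length counted. The floor of detection was 3 counts in a library and covers counting error only. No 2 libraries held identical counts. Permutation tests were exact and two-sided, on log2 values. The fit was tested on counts with 200 genes changed by known amounts. Positions are on hg19, 1-based, and exon overlaps come from GENCODE on GRCh37, the same assembly. Figures were drawn with matplotlib 3.10.9 in Python 3.11.15.

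The sensing genes and the lists around them were chosen with earlier results of these data known, from general knowledge of the pathway. The text names all sensing genes, and from each list at most 4 genes, those with the smallest p among genes with an adjusted p under 0.05. Some genes that this rule would name are not reported here. Alternatives were the Wald test of DESeq2 1.42.0, the size factors of DESeq2, library totals only, the absence of a filter, a minimum of 10 counts in all samples, a replicate block and each library left out. Subtraction of 7.10 counts per kb from vehicle replicate 3 was chosen after seeing the data.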

Additional observations from a re-analysis of the deposited data

How the results depend on the processing

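The rises of DDX58, IFIH1 and DHX58 kept their direction and passed an adjusted p of 0.05 under every alternative, the subtraction of background from vehicle replicate 3 included. The other members lay nearer to the threshold. MAVS missed it with no filter (log2 fold change -0.31, adjusted p = 0.103), and TLR3 passed it with the Wald test of DESeq2 (-1.01, adjusted p = 0.0448), so that the sensing genes that fell numbered 2 with the Wald test and 0 with no filter. IRF3 passed it with the Wald test of DESeq2 (0.50, adjusted p = 0.0387), with library totals only (0.54, adjusted p = 0.0318) and with at least 10 counts in every sample (0.51, adjusted p = 0.0454). EIF2AK2 changed sign without guadecitabine replicate 1 (-0.054). The cause of these shifts was not tested, beyond the smaller number of genes tested where the filter was stricter.

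The replicate number did not pair the libraries, since the deviations of same-numbered libraries correlated at -0.05, 0.049 and -0.037 across genes, against -0.061 to 0.063 for the others. With the replicate block 4654 genes were called in place of 5022, MAVS had -0.33 (adjusted p = 0.0634), TLR3 -1.10 (adjusted p = 0.0460) and IRF3 0.50 (adjusted p = 0.0325), and 1 gene of the relay fell. That number was also 1 with library totals only and with no filter, while 1 gene of the interferon receptor relay fell with no filter. IFNL1 left the test with at least 10 counts in every sample, so that 0 interferon genes rose there. CXCL10 left it under the same setting, where 18 of the IRF3 and interferon targets rose.

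With each library left out, the log2 fold change ranged from -1.49 to -0.71 for TLR3, from -0.40 to -0.27 for MAVS, from -0.054 to 0.283 for EIF2AK2 and from 0.32 to 0.65 for IRF3. The sensing genes that rose numbered 3 to 4 and those that fell 0 to 1. Genes that fell numbered 0 to 1 in the signal relay, 2 to 4 among proteins handling double-stranded RNA, 3 to 5 in DNA sensing, 0 to 2 in the interferon receptor relay, 1 to 2 among IRF3 and interferon targets and 0 to 1 in the endosomal group. Genes that rose numbered 0 to 1 among interferons, 1 to 4 in the receptor relay and 3 to 6 in the eIF2α kinase arm. No scaling moved the median log2 fold change of all genes by more than 0.034. The low counts of TLR3, ZBP1 and IFNL1 limit what can be said of them.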
